A study of Mus musculus with 12 samples.

Results

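The nuclear genome encodes most subunits of the 4 respiratory chain complexes and of ATP synthase, here numbered complexes I to V. Members were taken by name from a table of 20201 genes: protein-coding genes whose symbols begin with Nduf followed by a, b, c, s or v, with Uqcr, Cox5, Cox6, Cox7 or Atp5, together with Sdha, Sdhb, Sdhc, Sdhd and Cyc1. Assembly factors of the Ndufaf series and the tissue or hypoxia isoforms Ndufa4, Ndufa4l2, Cox6a1, Cox6a2, Cox7a1 and Cox7a2 were left out. Of 74 such genes, 73 reached a mean of 10 normalized counts over the 12 libraries, the minimum set by the rule, and 12553 genes of the whole table did so. Atp5s, with a mean of 17.6, lay just inside the minimum, and Cox6b2, with a mean of 9.41, just outside it. The members comprised 36 genes of complex I, 4 of complex II, 9 of complex III, 7 of complex IV and 17 of complex V.

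The libraries came from mouse myotubes, the fused muscle cells grown here from primary myoblasts of Bmal1-floxed animals. Per the labels, 6 libraries are knockout (Cre-expressing adenovirus for 48 h to delete the clock activator BMAL1, then 1% O2 for 6 h; titles Myotube4 to 6 and Myotube10 to 12) and 6 are wildtype (empty control virus for 48 h, then 21% O2 for 6 h; titles Myotube1 to 3 and Myotube7 to 9). All 12 share the floxed background and an adenoviral infection, and the control virus is not described as carrying Cre, so Cre expression, BMAL1 loss and the labelled oxygen level go together in the labels. The study's design text describes both viruses at both oxygen levels. Title blocks of 3 libraries are therefore given separately: Myotube1-6 and Myotube7-12 are called the 2 title sets, and no oxygen level is assigned to a block. Nothing in the labels names separate cultures or animals, so p-values measure the spread between libraries, which may be technical.

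Complex I (NADH dehydrogenase) and complex II (succinate dehydrogenase) pass electrons to ubiquinone, complex III passes them to cytochrome c and complex IV to oxygen. Proton pumping by complexes I, III and IV drives ATP synthase, complex V. A few subunits of complexes I, III, IV and V are encoded by mitochondrial DNA, whereas complex II is wholly nuclear-encoded. In skeletal muscle these subunits are abundant, and their genes are known targets of the nuclear respiratory factor NRF1, of GABP, of YY1 and of the oestrogen-related receptors with the coactivator PGC-1alpha.

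Recovered read totals ranged from 6376584 to 12463339 per library, of which 8 abundant genes took 49.2% to 65.4%, and 3 reads corresponded to 2.12 to 5.85 normalized counts. Arntl, which encodes BMAL1, lay at 41.7 to 48.6 in knockout (median 44.1), against 133 to 179 in wildtype (median 156), so its level followed the genotype label. The hypoxia-induced gene Egln3 (PHD3) did not follow the oxygen label: it was 2036 to 2143 in Myotube10-12 and 194 to 262 in Myotube4-6 (both knockout), and 2199 to 2258 in Myotube7-9 and 241 to 270.3 in Myotube1-3 (both wildtype). No difference below is assigned to oxygen for that reason. Myotube2, a wildtype library, stood apart: 29.6% of genes were at 0 there, against 13.0% to 21.9% in the others, and 58 of the 73 members (79.5%) had their lowest value of all 12 libraries in it, against 22.7% of all genes tested.

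Cell-type markers were summed per library. The 8 myotube markers summed to 27970.2 to 30839.7 in knockout, against 14313 to 18749 in wildtype, with no overlap. Of these 8, 5 rose (Acta1, Ckm, Des, Mylpf and Tnnt3), Myog fell by 0.51 on the log2 scale, and Myh3 and Myh8 differed by -0.057 and -0.24 without passing the test. The 4 myoblast markers summed to 255 to 345 in knockout, against 373 to 429 in wildtype, and the 5 endothelial markers to 1164 to 1423 in knockout, against 854 to 969 in wildtype, again with no overlap in either list. Of the myoblast markers Myf5 and Myod1 fell, Cdh15 rose and Pax7 did not pass, and of the endothelial markers 4 rose and Tek did not pass. The 6 fibroblast markers, of which Col1a1 made up most, summed to 41054 to 68056 in knockout, against 46814 to 57396 in wildtype, and these ranges overlapped, with 1 marker (Thy1) rising and 2 (Dcn and Lum) falling. Macrophage markers (5) summed to 50.7 to 87.7 in knockout, against 35.4 to 71.2 in wildtype, with Ptprc at 0 in 5 libraries and at or under 1.95 in the rest. Of 5 adipocyte markers 3 were in the table, at 120.3 to 271 in knockout, against 119 to 243 in wildtype, and Adipoq was at 0 in 10 libraries. The part of these markers in the differences below was not tested.

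Promoter windows were available for 59 of the 73 members (RefSeq, GRCm38.p6), each running from 250 bases before to 50 bases after an annotated transcription start. The 6 windows shown belong to the member genes with the largest knockout difference in complexes II, III and IV, to Atp5k and Atp5j2 of complex V, with Atp5j2 chosen for its YY1 match, and to Ndufv3, the gene that also differed between the title blocks of each label. Capitals mark every match, on either strand, to NRF1 (GCGCA, any base, then GCGC), GABP (CCGGAAGT), the oestrogen-related receptor motif ERR (AAGGTCA), YY1 (AAGATGGC) or the E-box bound by BMAL1 (CACGTG). No 2 of these motifs overlapped in the windows printed.
Sdhd: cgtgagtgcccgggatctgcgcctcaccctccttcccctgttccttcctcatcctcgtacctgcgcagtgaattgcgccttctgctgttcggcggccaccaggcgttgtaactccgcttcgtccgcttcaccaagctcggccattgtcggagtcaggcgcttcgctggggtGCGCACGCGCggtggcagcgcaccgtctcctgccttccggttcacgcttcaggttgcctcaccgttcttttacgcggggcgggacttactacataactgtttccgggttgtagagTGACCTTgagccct
Uqcrh: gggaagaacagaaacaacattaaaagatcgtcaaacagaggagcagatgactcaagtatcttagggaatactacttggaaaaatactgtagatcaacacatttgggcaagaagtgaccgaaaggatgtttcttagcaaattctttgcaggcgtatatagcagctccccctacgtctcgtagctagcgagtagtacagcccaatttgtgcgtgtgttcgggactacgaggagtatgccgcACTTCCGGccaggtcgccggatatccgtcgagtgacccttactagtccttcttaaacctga
Cox7b: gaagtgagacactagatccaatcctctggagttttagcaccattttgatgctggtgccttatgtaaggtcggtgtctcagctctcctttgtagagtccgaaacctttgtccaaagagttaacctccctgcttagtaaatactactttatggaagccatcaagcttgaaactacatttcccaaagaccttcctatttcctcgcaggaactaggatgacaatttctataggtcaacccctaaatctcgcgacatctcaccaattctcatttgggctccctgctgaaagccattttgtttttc
Atp5k: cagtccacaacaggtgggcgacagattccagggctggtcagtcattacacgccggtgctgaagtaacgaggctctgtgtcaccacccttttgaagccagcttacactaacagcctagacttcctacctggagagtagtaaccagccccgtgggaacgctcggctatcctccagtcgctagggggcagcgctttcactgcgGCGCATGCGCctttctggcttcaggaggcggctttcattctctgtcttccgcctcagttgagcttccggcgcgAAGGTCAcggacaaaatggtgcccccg
Atp5j2: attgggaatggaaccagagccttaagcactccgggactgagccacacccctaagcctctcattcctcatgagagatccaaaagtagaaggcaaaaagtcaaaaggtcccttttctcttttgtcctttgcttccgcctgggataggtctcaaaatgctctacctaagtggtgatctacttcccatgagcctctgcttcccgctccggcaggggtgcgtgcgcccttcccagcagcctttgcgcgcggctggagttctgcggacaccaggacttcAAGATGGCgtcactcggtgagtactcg
Ndufv3: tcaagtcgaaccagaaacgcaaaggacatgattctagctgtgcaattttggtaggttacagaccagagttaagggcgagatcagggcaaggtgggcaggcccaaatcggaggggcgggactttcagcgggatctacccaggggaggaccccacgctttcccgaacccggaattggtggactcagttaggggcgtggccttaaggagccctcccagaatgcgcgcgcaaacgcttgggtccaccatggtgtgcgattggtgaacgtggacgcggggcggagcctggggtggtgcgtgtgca

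The Sdhd window (chr9:50603800-50604099, minus strand) held an NRF1 match and an ERR match, and so did the Atp5k window (chr5:108434350-108434649, minus strand). The Uqcrh window (chr4:116075021-116075320, minus strand) held a GABP match and the Atp5j2 window (chr5:145191492-145191791, minus strand) a YY1 match. The Cox7b window (chrX:106015450-106015749, plus strand) and the Ndufv3 window (chr17:31519865-31520164, plus strand) held none of the 5 motifs. Over the 64 windows of the 59 members, the NRF1 motif occurred in 26.6% of the members' windows, 4.6% of all windows and 9.85% of those of the genes tested. The ERR motif occurred in 12.5% of the members' windows, 4.72% of all windows and 2.98% of those of the genes tested. The YY1 motif was found in 14.1% of the members' windows, 2.75% of all windows and 4.4% of those of the genes tested, and the GABP motif in 6.25% of the members' windows, 3.89% of all windows and 7.99% of those of the genes tested. For the E-box the shares were 9.38% of the members' windows, 7.15% of all windows and 9.95% of those of the genes tested. Of the 59 members, 26 had none of the 5 motifs, and their median log2 difference between knockout and wildtype was 0.58, against 0.51 for the 33 with at least 1. The 16 members with an NRF1 match had a median of 0.55, against 0.56 for the 43 without. For the other motifs the medians with and without a match were 0.70 (8 members) and 0.55 for ERR, 0.83 (4 members) and 0.56 for GABP, 0.72 (5 members) and 0.56 for the E-box, and 0.43 (9 members) and 0.58 for YY1. These differences were not tested. A match is a description of letters and not a binding site.

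Levels of nuclear-encoded subunit genes were higher in knockout than in wildtype libraries in all 5 complexes. Of the 73 members, 63 rose in knockout, 0 fell and 10 did not pass the test (limma on log2(normalized count + 1), averaged over the title sets, adjusted p under 0.05), whereas 16.2% of all 12553 genes tested rose and 14.5% fell. At an unadjusted p under 0.05, 66 members were higher and 1 (Atp5s) lower, and no member was called lower by edgeR or DESeq2. The median log2 difference was 0.54 over the members and -0.0015 over all genes tested, and 72 of 73 members had a positive difference. Without Myotube2, 65 members rose and the median was 0.46. The 16.2% and 14.5% of all genes belong to the fit with all 12 libraries, so the count of 65 has no share of all genes beside it. Fewer cells of a type and less RNA per cell cannot be told apart in such bulk libraries.

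The count by complex was 29 of 36 genes for complex I (median log2 difference 0.48), 4 of 4 for complex II (0.59), 8 of 9 for complex III (0.55), 7 of 7 for complex IV (0.64) and 15 of 17 for complex V (0.65). In 51 of the 73 members every knockout library lay above every wildtype library, which held for 7.07% of all genes tested, and the reverse held for 0 members and 5.38% of all genes. These 51 included 19 genes of complex I, 4 of complex II, 7 of complex III, 6 of complex IV and 15 of complex V. When the 8 abundant genes were left out of the scaling, the median of all genes moved to -0.17, 8.0% of all genes rose and 28.4% fell; 48 members then rose, 1 (Atp5s) fell, and the members' median of 0.37 still lay above that of all genes.

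Summed over the members, levels ranged from 46433 to 52720.0 in knockout, against 26201 to 36391 in wildtype, a ratio of means of 1.48 with no overlap. Complex I summed to 11514 to 12641 in knockout, against 6765 to 9949.9 in wildtype (ratio 1.36). Complex II summed to 2625 to 3199 in knockout, against 1779 to 2087 in wildtype (ratio 1.51). For complex III the sums were 5456 to 6409.7 in knockout, against 3042 to 4286 in wildtype (ratio 1.51). In complex IV they were 5343 to 5878 in knockout, against 2393 to 3985 in wildtype (ratio 1.59), and in complex V 21268 to 24592 in knockout, against 12222 to 16134 in wildtype (ratio 1.51). Every knockout library lay above every wildtype library in each of these 5 sums. The lowest wildtype sum was that of Myotube2 in all 5 complexes, and without it the lowest sum over all members was 32974.

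**Figure D1:**
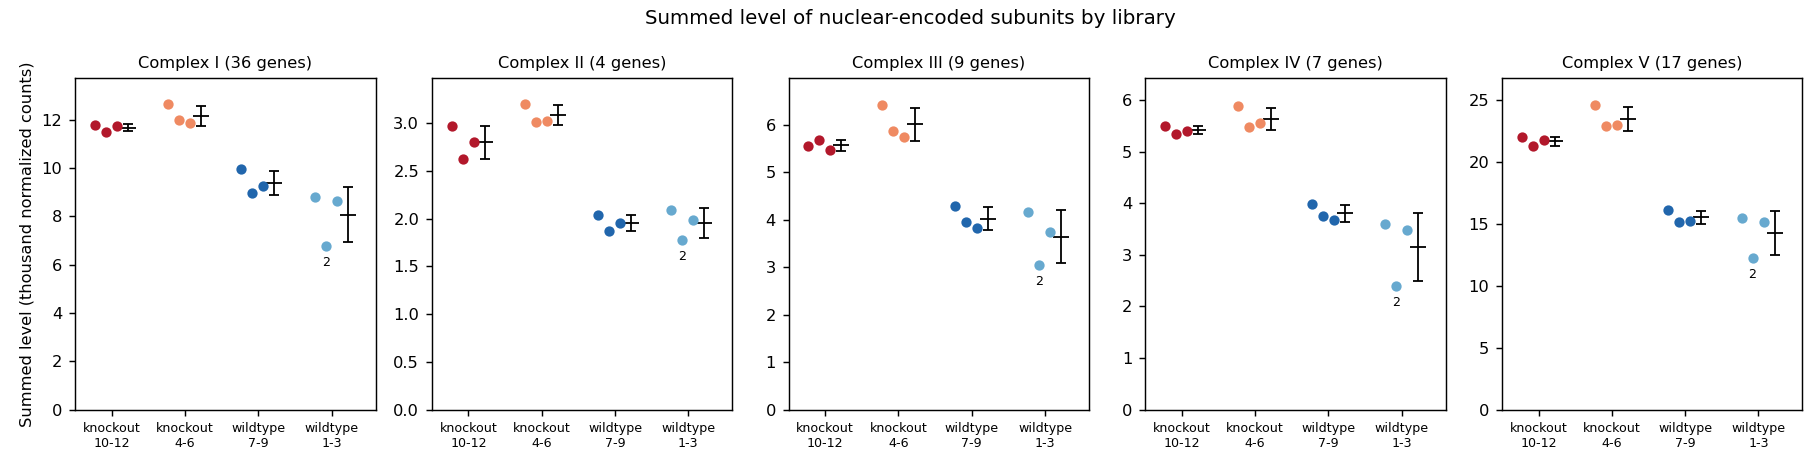
Summed normalized counts (y axis, in units of 1000) of the members of each complex in the 12 libraries, grouped by label and title block (x axis); points are libraries, bars are the mean and SD of 3, and the number 2 marks Myotube2. In each panel all 6 knockout libraries lie above all 6 wildtype libraries.

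In complex I the largest differences were in accessory subunits of the membrane arm. Ndufb7 had a lowest, median and highest value of 218, 237 and 289 in knockout, against 52.7, 144 and 165 in wildtype, a log2 difference of 0.96 (SE 0.21, adjusted p = 0.0039). Ndufc1 had a lowest, median and highest value of 184, 206 and 219 in knockout, against 38.7, 130.1 and 153 in wildtype, a difference of 0.91 (SE 0.23, adjusted p = 0.00904). For both genes the lowest value, 52.7 for Ndufb7 and 38.7 for Ndufc1, came from Myotube2. The other wildtype libraries lay between 134 and 165 for Ndufb7 and between 113 and 153 for Ndufc1, and the labels did not overlap for either gene. Without Myotube2 the difference was 0.71 for Ndufb7 and 0.65 for Ndufc1, both still past the test. Ndufb10 ranged from 254 to 298 in knockout (median 286), against 141 to 176 in wildtype (median 165), with no overlap and a difference of 0.77 (SE 0.075, adjusted p = 9.98e-06).

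In complex I 7 genes did not pass the test: Ndufa5, Ndufb3, Ndufb4, Ndufc2, Ndufs3, Ndufs4 and Ndufs7. Ndufb3, a membrane-arm subunit, ranged from 76.3 to 97.2 in knockout (median 90.5), against 51.1 to 101 in wildtype (median 87.1), so the labels overlapped, and its difference was 0.10 (SE 0.15, adjusted p = 0.644). Ndufc2, the partner of Ndufc1 in the membrane arm, ranged from 175 to 236 in knockout (median 182), against 127 to 221 in wildtype (median 197) and differed by 0.048 (SE 0.10, adjusted p = 0.766). Both differences turned negative without Myotube2, at -0.038 for Ndufb3 and -0.027 for Ndufc2. Ndufs3 and Ndufs7, both core subunits of the peripheral arm, had differences of 0.12 and 0.13, and Ndufs4, an accessory subunit of that arm, had 0.14. Among the 7 core subunits encoded in the nucleus 5 rose, with a median of 0.38, and among the 29 accessory subunits 24 rose, with a median of 0.48. The 2 classes were sorted with the values known, and the difference between them was not tested.

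All 4 genes of complex II rose in knockout, and for each of them the labels did not overlap. Sdhd, a membrane anchor that carries the ubiquinone site with Sdhc, had 620.0, 600.5 and 606 in Myotube10-12 and 773, 671 and 708 in Myotube4-6, against 426, 364 and 325 in Myotube7-9 and 427, 387 and 405 in Myotube1-3, a log2 difference of 0.77 (SE 0.068, adjusted p = 4.41e-06). Sdhb, the iron-sulphur subunit, had a lowest, median and highest value of 535, 555 and 617 in knockout, against 337, 359 and 386 in wildtype, and differed by 0.66 (SE 0.055, adjusted p = 2.68e-06). Sdhc, the other anchor, ranged from 345 to 455 in knockout (median 426), against 254 to 319.8 in wildtype (median 301) and differed by 0.52 (SE 0.074, adjusted p = 0.000196). Sdha, the flavoprotein that oxidises succinate, ranged from 1095 to 1441 in knockout (median 1299.6), against 794 to 1007 in wildtype (median 924) and differed by 0.50 (SE 0.075, adjusted p = 0.000317).

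In complex III the 5 small subunits had a median of 0.59, with values between 0.36 and 1.07, and the 2 core proteins a median of 0.57, a difference that was not tested. Uqcrh, the hinge protein that binds cytochrome c1 (chr4:116066965-116075071 in GENCODE M21, mm10), had 779.9, 702 and 738 in Myotube10-12 and 789, 738 and 689 in Myotube4-6, against 409.8, 357 and 361 in Myotube7-9 and 385, 273 and 334 in Myotube1-3. The labels did not overlap, and the log2 difference was 1.07 (SE 0.081, adjusted p = 1.22e-06), or 2.10-fold. Uqcr11, a small transmembrane subunit, ranged from 521 to 678 in knockout (median 567), against 198 to 373 in wildtype (median 335) and differed by 0.90 (SE 0.13, adjusted p = 0.000211), and Uqcr10 ranged from 335 to 438 in knockout (median 358), against 190.5 to 287 in wildtype (median 259) and differed by 0.59 (SE 0.092, adjusted p = 0.000383). Neither gene overlapped between the labels. Without Myotube2 Uqcr11 differed by 0.77 and Uqcr10 by 0.53, both past the test. Uqcrc1, a core protein that faces the matrix, ranged from 1119 to 1395 in knockout (median 1203), against 650.4 to 910.3 in wildtype (median 806) and differed by 0.59 (SE 0.075, adjusted p = 9.27e-05).

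Smaller differences were found for 3 other complex III genes. Uqcrfs1, the Rieske iron-sulphur protein, ranged from 439.6 to 599 in knockout (median 532), against 356 to 454 in wildtype (median 422), with overlap between the labels, and differed by 0.32 (SE 0.071, adjusted p = 0.00433), a call that was lost with the abundant genes left out. Uqcrb, a small matrix-side subunit beside cytochrome b, ranged from 378 to 439 in knockout (median 419.8), against 156 to 348 in wildtype (median 327) without overlap and differed by 0.51 (SE 0.16, adjusted p = 0.0265), a call that was lost when Myotube4, 5, 8, 11 or 12 was left out, by quantile normalization and with the abundant genes left out. Without Myotube2 the difference of Uqcrb was 0.33 and passed. Uqcrq, a small subunit that binds near the cytochrome b core, was the 1 gene of the complex that did not pass, at 480.2 to 573 in knockout (median 528), against 246 to 497 in wildtype (median 452) and 0.36 (SE 0.13, adjusted p = 0.0595). Without Myotube1, 2 or 3 its adjusted p was below 0.05, and without Myotube2 the difference of Uqcrq was 0.21.

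Complex IV held the largest difference of all members. Cox7b, a small transmembrane subunit (chrX:106015700-106022450), had 817, 652 and 706 in Myotube10-12 and 779.6, 717 and 705 in Myotube4-6, against 387, 369 and 309.8 in Myotube7-9 and 337, 197 and 356 in Myotube1-3. The labels did not overlap, and the log2 difference was 1.19 (SE 0.13, adjusted p = 2.47e-05), or 2.28-fold. Cox6b1, which bridges the complex dimer on the intermembrane side, had a lowest, median and highest value of 896, 934 and 1054 in knockout, against 384, 486 and 526 in wildtype, a difference of 1.00 (SE 0.073, adjusted p = 1.01e-06). Cox5a, a matrix-facing subunit, ranged from 580.2 to 771 in knockout (median 619), against 359 to 437 in wildtype (median 393) and differed by 0.70 (SE 0.070, adjusted p = 1.21e-05), and Cox5b, the zinc-binding subunit, ranged from 845 to 975 in knockout (median 911), against 309.7 to 753 in wildtype (median 614) and differed by 0.64 (SE 0.15, adjusted p = 0.00494). None of these 4 genes overlapped between the labels. The lowest wildtype value of each was that of Myotube2. Without that library Cox7b, Cox6b1, Cox5a and Cox5b differed by 1.05, 0.93, 0.67 and 0.48, all past the test.

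The smallest differences of complex IV were those of Cox7c and Cox7a2l. Cox7c, a small transmembrane subunit, ranged from 601 to 729 in knockout (median 703), against 262 to 625 in wildtype (median 555) and differed by 0.46 (SE 0.15, adjusted p = 0.0389), with overlap in Myotube10 alone. That call was lost when Myotube4, 5, 6, 7, 8, 9, 11 or 12 was left out, and without Myotube2 the difference of Cox7c was 0.28 and passed. Cox7a2l, a factor that joins complexes III and IV into supercomplexes, ranged from 814 to 900.1 in knockout (median 846), against 444 to 752 in wildtype (median 685) without overlap and differed by 0.41 (SE 0.079, adjusted p = 0.00184). Without Myotube2 the difference of Cox7a2l was 0.325 and passed.

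In complex V the largest differences were in subunits of the membrane part. Atp5k, subunit e of the dimer interface (chr5:108433244-108434448), had 335, 413 and 329.9 in Myotube10-12 and 383, 378 and 387 in Myotube4-6, against 199, 168 and 169.9 in Myotube7-9 and 177, 125 and 192 in Myotube1-3, a log2 difference of 1.12 (SE 0.11, adjusted p = 7.42e-06), or 2.17-fold. Atp5j2, subunit f, ranged from 613 to 708 in knockout (median 645), against 304 to 359 in wildtype (median 333) and differed by 0.97 (SE 0.062, adjusted p = 3.47e-07). All 4 membrane-part genes, all 4 peripheral-stalk genes and all 5 genes of the F1 head and central stalk rose, with medians of 0.91, 0.67 and 0.52. The catalytic beta subunit gene Atp5b ranged from 7120.4 to 8750.1 in knockout (median 7992), against 3652 to 5506 in wildtype (median 5311) and differed by 0.65 (SE 0.086, adjusted p = 0.000113). Without Myotube2, which held its lowest value, the difference of Atp5b was 0.56 and passed.

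Of the 3 genes that encode the same mature c-ring subunit, 2 rose in knockout, and the difference between the 3 was not tested. Atp5g1 had a lowest, median and highest value of 659, 714 and 888 in knockout, against 329, 368 and 432 in wildtype, without overlap, and differed by 0.98 (SE 0.073, adjusted p = 1.18e-06). Atp5g3 ranged from 968 to 1319 in knockout (median 1053), against 489 to 764 in wildtype (median 634), without overlap, and differed by 0.78 (SE 0.095, adjusted p = 6.01e-05). Atp5g2 ranged from 437 to 513 in knockout (median 482), against 381 to 508 in wildtype (median 409.5), so the labels overlapped in Myotube7, and its difference of 0.19 (SE 0.066, adjusted p = 0.0501) did not pass the test. Without Myotube5, 7 or 10 the adjusted p of Atp5g2 was below 0.05, and with the length and GC trend removed its difference was -0.019. RSEM divides reads that fit several near-identical genes by estimate, so the split between these paralogues, and between members and their processed pseudogenes, is uncertain.

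Atp5s was the only member with a negative difference. It encodes factor B, a coupling factor that is not counted among the structural subunits. Its values were 5.85, 11.3 and 14.3 in Myotube10-12 and 12.4, 23.6 and 13.3 in Myotube4-6, against 23.4, 20.5 and 17.1 in Myotube7-9 and 16.7, 32.5 and 20.6 in Myotube1-3, a log2 difference of -0.72 (SE 0.28, adjusted p = 0.0662). The labels overlapped, and the value of 5.85 in Myotube10 equals 3 reads, so the precision is that of low counts. The difference passed the test as lower without Myotube5 or Myotube12.

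**Figure D2:**
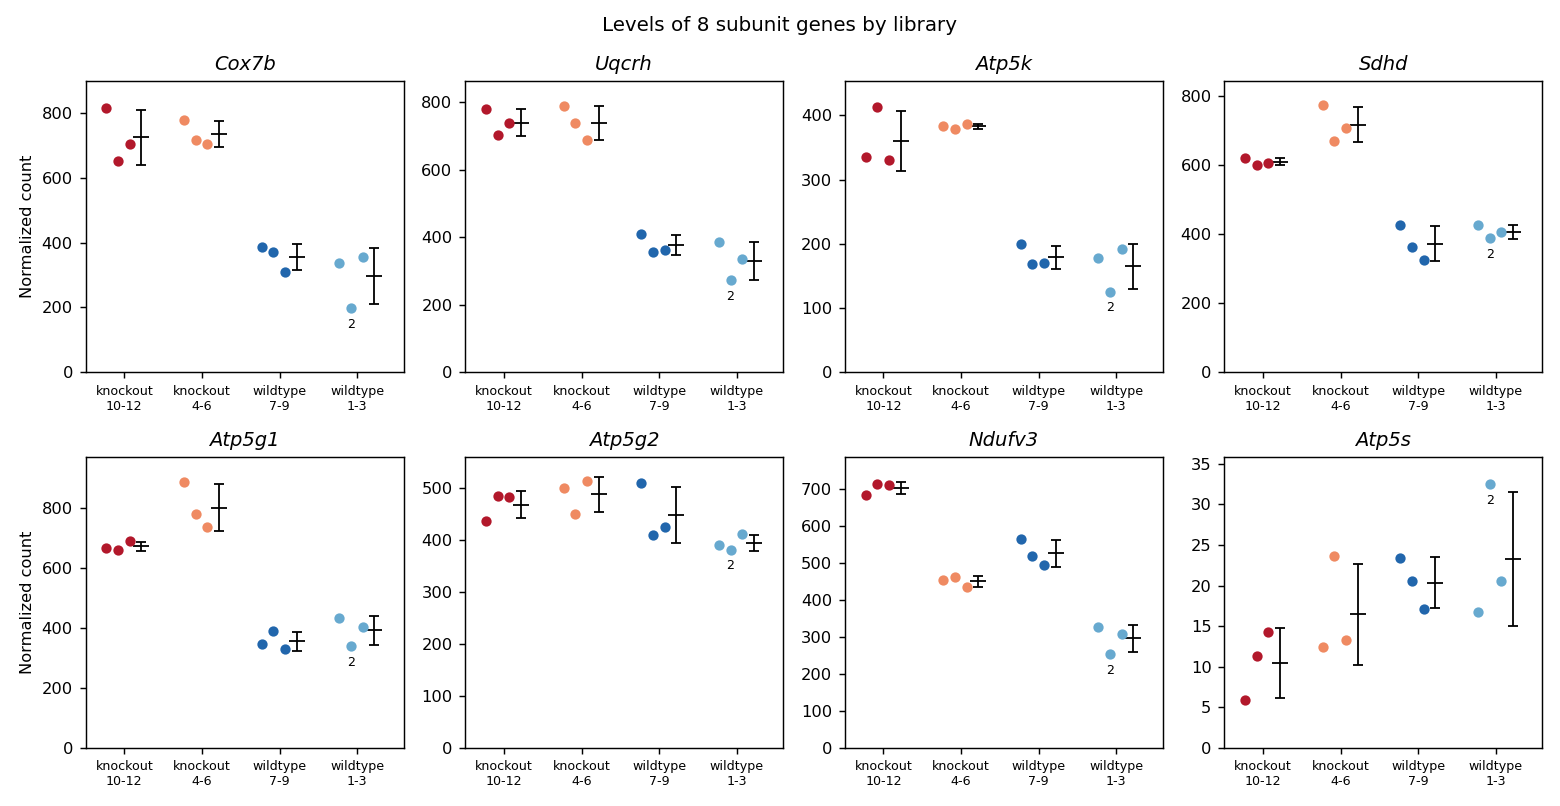
Normalized counts (y axis) of 8 member genes in the 12 libraries, by label and title block (x axis); points are libraries, bars are the mean and SD of 3, and the number 2 marks Myotube2. Cox7b, Uqcrh, Atp5k, Sdhd and Atp5g1 separate by label, Atp5g2 and Atp5s overlap, and Ndufv3 differs by label and by title set.

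**Figure D3:**
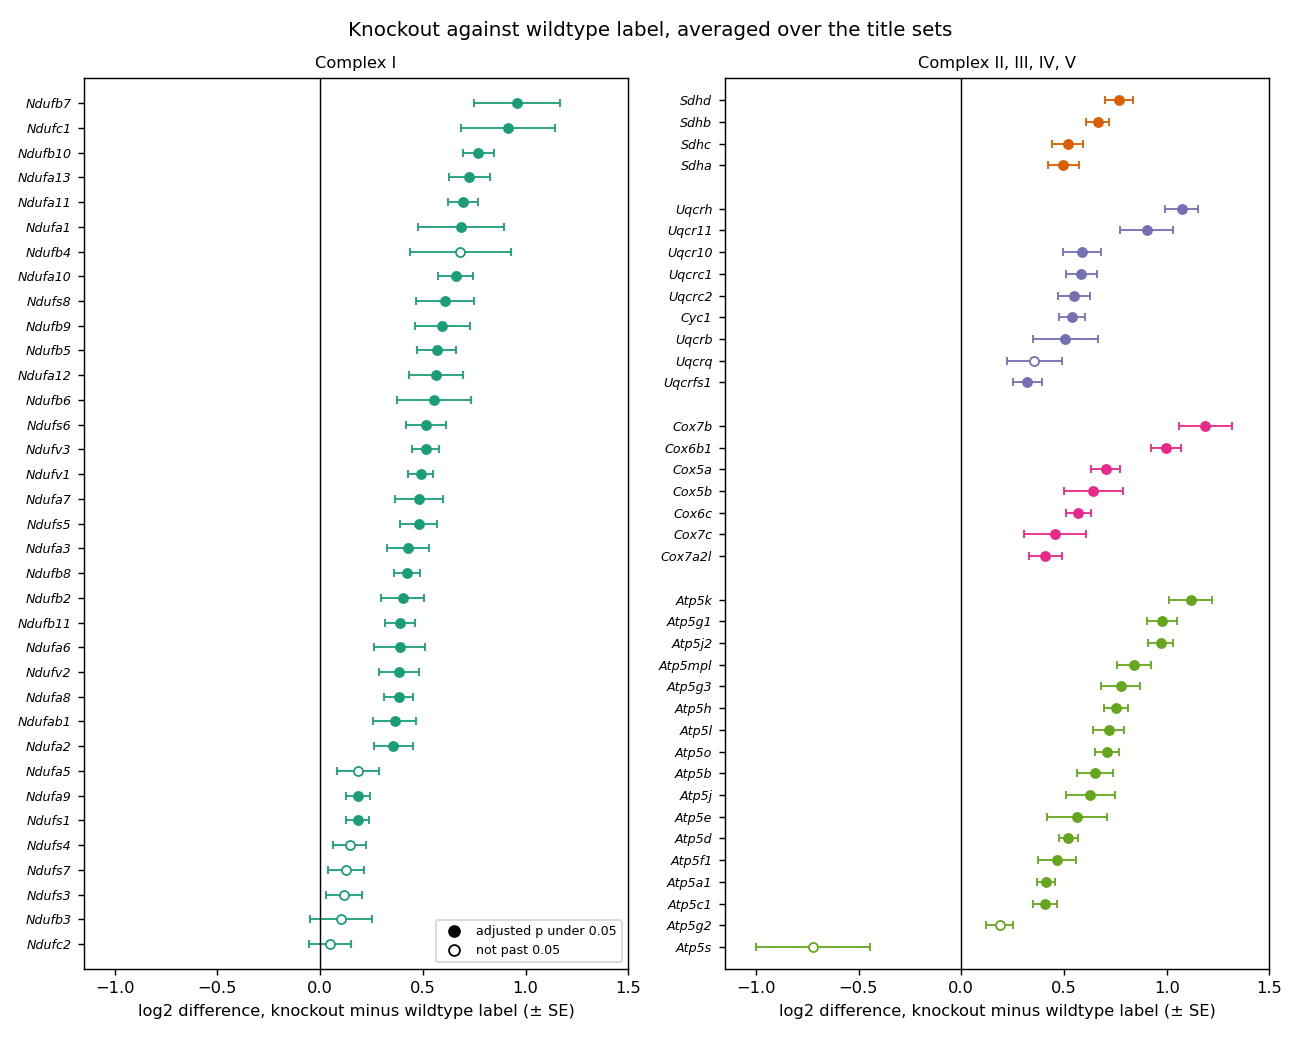
Log2 difference between knockout and wildtype (x axis, with SE) for 72 of the 73 members by complex (y axis); filled points have an adjusted p under 0.05. The filled points are all positive, and Atp5s, an open point, is the only negative value shown.

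The knockout difference was next taken in each title set. The sets share no library, but both tests use 1 estimate of the spread per gene from all 12 libraries. Their calls are therefore not independent. Within Myotube7-12, 34 members rose (8.84% of all genes tested rose), with a median of 0.38, and within Myotube1-6, 59 rose (10.8% of all genes), with a median of 0.71. No member fell in either set by limma, edgeR or DESeq2, whereas 7.64% of all genes fell within Myotube7-12 and 7.97% within Myotube1-6. At an unadjusted p under 0.05, 1 member was lower within Myotube7-12 and 0 within Myotube1-6. The sign of the difference was the same in both sets for 70 members. Of the called genes 33 were shared, which is 97.1% of those within Myotube7-12 and 55.9% of those within Myotube1-6. By complex, the counts within Myotube7-12 were 8, 4, 5, 4 and 13 for complexes I to V, and within Myotube1-6 they were 25, 4, 7, 7 and 16. Complex II thus rose in full in both sets.

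Single genes show how the sets compare. Cox7b differed by 1.03 (SE 0.18, adjusted p = 0.00234) within Myotube7-12 and by 1.35 (SE 0.18, adjusted p = 0.000288) within Myotube1-6. Uqcrh differed by 0.98 and 1.17 in the same order, Atp5j2 by 0.94 and 1.00, and Sdhd by 0.72 and 0.82. All of these passed the test in both sets. Ndufb7 differed by 0.59 (SE 0.30, adjusted p = 0.206) within Myotube7-12 and by 1.33 (SE 0.30, adjusted p = 0.00774) within Myotube1-6, where its lowest wildtype value was that of Myotube2. Without Myotube2 the Ndufb7 difference within Myotube1-6 was 0.84, and both sets passed the test.

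The difference between the sets was tested as an interaction, and 0 members passed by limma, edgeR or DESeq2, with 12 lower and 0 higher at an unadjusted p under 0.05. Over all genes tested 0.00797%, a single gene, passed as lower. The estimates were smaller within Myotube7-12 for 72 of 73 members, with a median difference of differences of -0.26. Without Myotube2 that median was -0.14 and 66 estimates were negative. Within Myotube7-12, 51 members rose when Myotube2 was left out, and within Myotube1-6 57 rose. Leaving it out does not change the differences within Myotube7-12. It changes the estimate of the spread and the adjustment over all genes. The 8.84% and 10.8% of all genes given above belong to the fit with all 12 libraries. The counts of 51 and 57 therefore have no share of all genes beside them, and a gain of all genes alike is not separated. The median SD of the members on the log2 scale was 0.092 in Myotube10-12, 0.096 in Myotube4-6, 0.11 in Myotube7-9 and 0.22 in Myotube1-3, or 0.064 for Myotube1 and 3 alone.

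**Figure D4:**
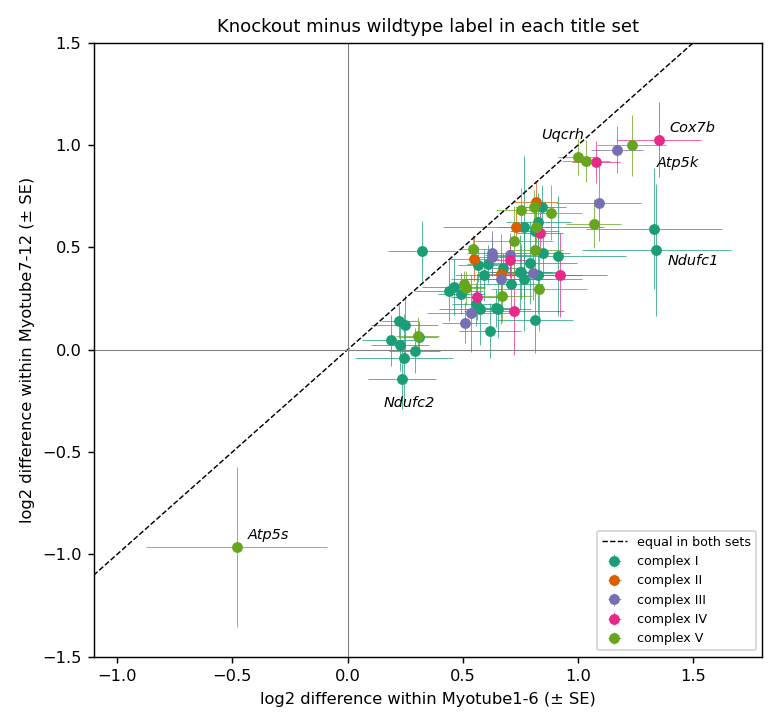
Log2 difference between knockout and wildtype of the 73 members within Myotube7-12 (y axis) and within Myotube1-6 (x axis), each with its SE; colours are complexes and the dashed line marks equal values. Nearly all points lie below the line and to the right of 0, and Atp5s is negative in both sets.

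Blocks with the same label were also compared, without assigning either a condition; they share their libraries with the comparisons above. Between Myotube10-12 and Myotube4-6, both knockout, 1 member rose (11.2% of all genes tested rose) and 1 fell (7.89% of all genes), with a median of -0.087. Between Myotube7-9 and Myotube1-3, both wildtype, 3 members rose (9.79% of all genes) and 0 fell (6.96% of all genes, and 0 members at an unadjusted p under 0.05 or by edgeR or DESeq2), with a median of 0.19. Without Myotube2 that median was 0.054, with 47 members positive and 26 negative, and 4 members rose. The member counts of the fit with all 12 libraries are near or below these shares of all genes, which belong to the same fit. The 4 that rose without Myotube2 have no such share beside them.

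Ndufv3, an accessory subunit of the NADH-oxidising arm of complex I (chr17:31520115-31531331), was the member that rose in both comparisons. It had 682, 713 and 709 in Myotube10-12 and 454, 460.3 and 433 in Myotube4-6, a log2 difference of 0.64 (SE 0.093, adjusted p = 0.000324) between these knockout blocks. In wildtype it had 564, 519 and 493 in Myotube7-9 and 325, 254 and 307 in Myotube1-3, a difference of 0.83 (SE 0.093, adjusted p = 4.13e-05). The 4 blocks did not overlap, and the order of their levels from the highest was Myotube10-12, Myotube7-9, Myotube4-6 and Myotube1-3. Its difference between knockout and wildtype was 0.51 (SE 0.066, adjusted p = 8.63e-05), which did not pass when the title set was left out of the model. Ndufv3 was called higher in both block comparisons under every alternative run.

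The other calls between blocks are named here after their values were seen. Ndufb8, a membrane-arm subunit of complex I, fell by 0.29 on the log2 scale in Myotube10-12 against Myotube4-6 (419, 434 and 454 against 558, 534 and 510.2, adjusted p = 0.0398). That call was lost when any of Myotube4, 5, 6, 8, 10, 11 or 12 was left out, and without Myotube2 5 members fell. The 7.89% of all genes that fell is the share with all 12 libraries, so the 5 are not read as a result about the members. Ndufb11, of the same arm, rose in Myotube7-9 against Myotube1-3 (343, 285 and 313 against 247, 206 and 264, log2 difference 0.39, adjusted p = 0.0208), and so did Cox7a2l (721, 729 and 752 against 649.7, 444 and 610.1, log2 difference 0.39, adjusted p = 0.0319). The value of 444 for Cox7a2l is that of Myotube2, and without it the difference was 0.22 for Cox7a2l and 0.29 for Ndufb11, both still past the test. Without Myotube7 or Myotube9 Ndufv3 alone passed, without Myotube8 2 members did, and without Myotube1 or Myotube3 there were 8 and 7. No share of all genes is given beside these counts.

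Other genes of the pathway were counted in lists beside the members. Of 12 nuclear-encoded subunits, isoforms and partners outside the rule, 9 rose between knockout and wildtype, with a median of 0.59. Cox8b, a muscle isoform of complex IV, had the highest difference, at 72.8 to 111 in knockout (median 95.5), against 13.9 to 84.0 in wildtype (median 60.2) and 0.91 (SE 0.31, adjusted p = 0.0389). Its labels overlapped, and its lowest wildtype value was that of Myotube2; without that library Cox8b differed by 0.58 and Cycs, which encodes cytochrome c, had the highest difference of the list, at 0.66. Ndufa4l2, a hypoxia-induced paralogue of Ndufa4, had the lowest, at 0.014 (SE 0.063, adjusted p = 0.891). Cox4i1, the common isoform of subunit 4 of complex IV, ranged from 1550.0 to 1791 in knockout (median 1627), against 691 to 1179.7 in wildtype (median 1042) and differed by 0.72 (SE 0.087, adjusted p = 5.33e-05). Of the 13 mitochondrially encoded subunit genes 11 rose, with a median of 1.05. In the same contrast 16.2% of all genes tested rose. The 11 include mt-Co2, the single gene that passed the test between title sets, which was listed at 0 in Myotube1 to 3 and at 121 to 671 in the other 9 libraries. Blocks of 1 label also differed in this list. In Myotube10-12 against Myotube4-6, 5 of the 13 fell and 0 rose (median -0.42), against 7.89% and 11.2% of all genes. In Myotube7-9 against Myotube1-3, 4 fell and 1 rose (median -0.22), against 6.96% and 9.79%.

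Of 51 assembly factors tested, proteins that help build the complexes without staying in them, 3 rose and 1 (Foxred1) fell. In the same fit, with all 12 libraries, 16.2% of all genes tested rose and 14.5% fell. The median of the factors was -0.059 (-0.12 without Myotube2), against 0.54 for the subunits (0.46 without Myotube2). Without Myotube2, 3 factors rose and 2 (Cox11 and Cox17) fell, and Foxred1 did not pass. The highest was Uqcc2, a complex III assembly factor, at 201 to 293 in knockout (median 242), against 88.3 to 201 in wildtype (median 175) and 0.58 (SE 0.17, adjusted p = 0.0186), and the lowest was Ndufaf4, a complex I factor, at -0.43 (SE 0.16, adjusted p = 0.0556). Of 14 citric acid cycle genes 9 rose, with a median of 0.33. Mdh2, mitochondrial malate dehydrogenase, was the highest of them, at 1257 to 1422 in knockout (median 1343), against 759 to 894 in wildtype (median 820.0) and 0.71 (SE 0.053, adjusted p = 1.15e-06).

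Of 9 known regulators of these genes that were tested, 0 rose by limma (1 at an unadjusted p under 0.05) and 4 fell. That fit, with all 12 libraries, had 16.2% of all genes tested rising and 14.5% falling. Ppargc1a, which encodes PGC-1alpha, ranged from 3.73 to 25.3 in knockout (median 10.6), against 36.4 to 122 in wildtype (median 50.9) and differed by -2.27 (SE 0.39, adjusted p = 0.000746). Its highest value was that of Myotube2. Esrrg, the oestrogen-related receptor gamma gene, ranged from 2.66 to 9.75 in knockout (median 5.33), against 21.5 to 27.8 in wildtype (median 25.9) and differed by -2.00 (SE 0.24, adjusted p = 5.00e-05). Tfam, a mitochondrial transcription factor, and Ppargc1b, which encodes PGC-1beta, differed by -0.73 and -1.07, both past the test. Esrra, the oestrogen-related receptor alpha gene, had the highest difference, at 117 to 163 in knockout (median 153), against 97.8 to 146 in wildtype (median 122), and its difference of 0.25 (SE 0.11, adjusted p = 0.11) did not pass the test. Nrf1, Gabpa, Gabpb1 and Yy1 had differences of -0.049, -0.044, -0.087 and 0.037, none of them past the test. Without Myotube2, Gabpb1 differed by -0.34 (limma adjusted p = 0.0313) and 5 of the 9 regulators fell. Nrf1, Gabpa and Yy1 did not pass without that library either.

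**Figure D5:**
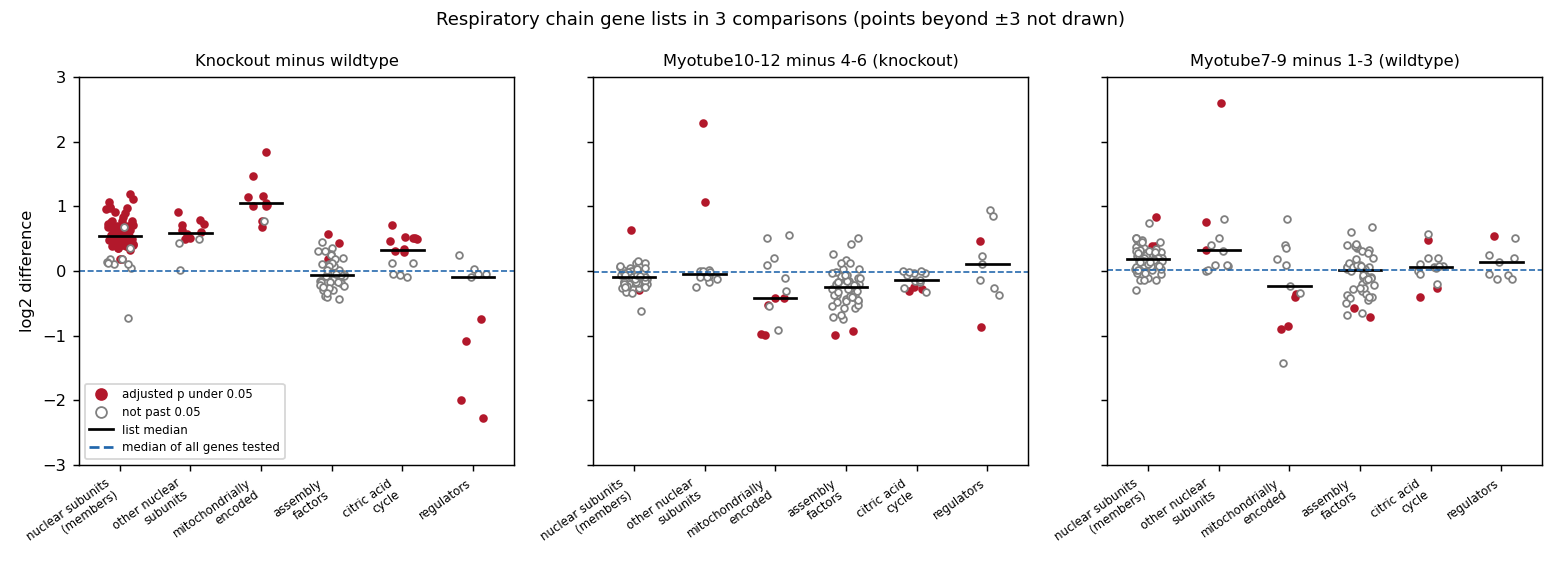
Log2 differences (y axis) of the members and 5 other lists (x axis) between knockout and wildtype, Myotube10-12 and Myotube4-6, and Myotube7-9 and Myotube1-3; filled points have an adjusted p under 0.05, black lines are list medians and the dashed line is the median of all genes. Values beyond 3, all of mitochondrially encoded genes, are not drawn; in the first panel the 3 subunit lists have medians above that of the assembly factors.

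Most members have short transcripts, so they were set beside other coding genes of like length. Of the 55 members with a transcript of up to 1000 bases, 46 rose between knockout and wildtype, with a median of 0.55. Among 2054 other coding genes of that length 22.4% rose, with a median of 0.069. In the class over 1000 and up to 2000 bases, 14 of 15 members rose (median 0.54), against 18.0% of 3070 other genes (median 0.0056). With a trend on length and GC content removed from each library, 57 members rose and 1 (Atp5s) fell, and the members' median was 0.42. The share and median of all genes under that setting are not given here.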

How the data were processed

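Total RNA of 12 myotube libraries was prepared with a stranded kit, per the labels' protocols. The deposited table has 1 column for each library, and its signal is a normalized read count made by the authors. According to the submitters' processing notes, the tools were Trimmomatic 0.33, STAR 2.5.2 against mm10, RSEM 1.3.3 and DESeq2. The annotation and strand setting used for counting are not given in the sources used here. The value of 1 read was taken as the smallest value above 0 in each column. Division of each column by that value gave whole numbers within 1e-06 reads for 100% of values. These whole numbers are called recovered reads and were used for the count tests. They may be rounded RSEM estimates. RSEM's estimates for near-identical genes can move reads between paralogues.

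Symbols and positions came from GENCODE M21, which named 19970 of 20201 identifiers. The main test was limma 3.58.1 (R 4.3.3, trended prior) on log2(normalized count + 1) for the 12553 genes with a mean of 10 or more, with 1 mean for each of 4 title blocks, two-sided, with Benjamini-Hochberg adjustment over all genes tested and a threshold of 0.05. Fold changes are on that log2 scale, which understates changes of low genes. Alternatives were edgeR 4.0.16 and DESeq2 1.42.0 on recovered reads, other pseudocounts, filters and scalings, library weights, a length and GC trend, and each library left out. The script was tested on simulated data. Between no 2 libraries did counts agree within sampling noise (smallest chi-square per degree of freedom 4.97). The SEs come from the spread between libraries within title blocks, and the floors in reads cover counting error only.

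The members, lists and named genes were chosen with earlier results of these data known. Named with values were the Sdh and Atp5g genes, the 3 highest and 2 lowest differences of complexes I, III, IV and V, the member with the highest mean and the member with the largest difference between blocks in each, and at most 3 genes of each other list. Regulators and genes named for a count were chosen after their values were seen. For 1 gene that met this rule the values are not reported here.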

Additional observations from a re-analysis of the deposited data

Results flagged for a closer look

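Single libraries stood far from the other 5 of their label in 12 of the genes named, by the gap to the nearest library divided by the range of the group; chance flags about 1 in 20 groups. Myotube2, a wildtype library, was the low value in 8 of them: Ndufb7 (52.7 normalized counts), Ndufc1 (38.7), Uqcrq (246), Uqcrb (156), Cox6b1 (384), Cox7c (262), Cox5b (310) and Atp5b (3652). This is the library with the most genes at 0, and its weight in a fit with library weights was 0.142. Ndufc2 stood high in Myotube12 (236) and Uqcrc1 in Myotube4 (1395), both knockout libraries, and so did Atp5j2 in Myotube10 (708). Atp5g2 stood high in Myotube7, a wildtype library (508), the library in which its labels overlapped. The cause of these values was not tested.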

How the results depend on the processing

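No paired analysis was possible because the labels carry no replicate numbers, and the numbers used here only name libraries in accession order. The members that rose between knockout and wildtype numbered 63, and 48 (abundant genes left out) to 66 (library weights) under the other settings, 55 without the title set in the model, and 56 to 65 with 1 library left out; 0 fell, or 0 to 1 with 1 library left out, and 1 (Atp5s) fell with the abundant genes left out or with the length and GC trend removed. Within Myotube7-12 the count of 34 was 20 with the abundant genes left out and 27 to 51 with 1 library left out, and within Myotube1-6 it was 50 to 63. Between Myotube7-9 and Myotube1-3, 5 members rose with a mean of 50 or more or by DESeq2, 1 with the abundant genes left out, and 1 to 8 with 1 library left out. Between Myotube10-12 and Myotube4-6, the 1 that fell became 0 without a filter on low values, 2 by edgeR and 2 by DESeq2, 4 by quantile normalization, 4 by upper-quartile scaling, 4 with library weights, 8 with the abundant genes left out, and 0 to 5 with 1 library left out. The difference of Ndufb3 turned to -0.061 with the abundant genes left out, -0.022 with library weights and, with 1 library left out, ranged from -0.038 (Myotube2) to 0.21. That of Ndufc2 turned to -0.117 with the abundant genes left out, -0.070 with the length and GC trend removed, -0.024 without Myotube12 and, with 1 library left out, ranged from -0.027 (Myotube2) to 0.11, and that of Atp5g2 to -0.019 with the length and GC trend removed. None of these 3 genes had passed the test. Of the other values of named genes under an alternative, 698 kept direction and side of the threshold, 21 kept direction and no longer passed (Cox7c, Uqcrb, Uqcrfs1 and Ndufv3), and 16 passed newly (Atp5g2, Atp5s and Uqcrq). The calls over all genes ranged from 2416 without the title set to 4765 with library weights, with 3857 in the fit reported. The member counts above have no share of all genes of the same setting beside them. They show how the calls vary with the setting and are not read as a result about the members. The cause was not tested. Depth limits Atp5s, whose lowest value equals 3 reads.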
